A study of Mus musculus with 2 samples.

Results

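The 7 protein kinase C genes described here are Prkca, Prkcb, Prkcd, Prkce, Prkch, Prkci and Prkcz, of 55536 genes quantified in mouse hippocampus by total RNA sequencing. They were matched by gene symbol in the tables that carry symbols, and by gene identifier in the tables that carry identifiers. All 7 were found in both kinds of table. Other protein kinase C genes are not analysed here.

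The data are 2 libraries of 1 group, biological replicates 1 and 2. Both are hippocampus from female B6CASTF1/J mice aged 18 to 20 months, the F1 hybrid of C57BL/6J and CAST/EiJ, supplied by The Jackson Laboratory. Libraries used 300 ng of RNA each, were reduced in ribosomal RNA and carried ERCC spike-in RNAs, per the labels. The label names the tissue as a layer of hippocampus without saying which layer. The biosample labels of the libraries differ while their donor label is the same, and the labels do not settle whether 2 animals were used, so the spread between them may be partly technical. The group has no counterpart of another age, sex, strain or tissue among these samples, so no test is made and no p-value is given. The question the files can answer is how much of each kinase gene, and of each of its transcripts, was present and how closely the 2 libraries agreed.

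Protein kinase C enzymes are serine and threonine kinases that pair a catalytic domain with an amino-terminal regulatory region. In the conventional forms, here alpha (Prkca) and beta (Prkcb), that region responds to calcium and diacylglycerol. In the calcium-independent forms, here delta (Prkcd), epsilon (Prkce) and eta (Prkch), it responds to diacylglycerol alone, and in the atypical forms, iota (Prkci; also called lambda in mouse) and zeta (Prkcz), to neither of them. The Prkcz gene is also known for PKM-zeta, a protein made in brain from an internal start within the gene. PKM-zeta lacks the regulatory region, is active without a second messenger, and has long been studied, and debated, as a molecule that maintains synaptic potentiation and memory.

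The annotation (GENCODE M21, mm10) lists 10 transcripts of Prkcz (ENSMUSG00000029053.16) on the minus strand of chromosome 4, between 155260129 and 155361361. Prkcz-202 encodes a protein of 409 codons in 15 exons, and Prkcz-201 encodes the full-length kinase in 592 codons and 18 exons. The coding sequence of Prkcz-202 equals the 3′ end of the full-length one from codon 184 onwards, so that 549 coding bases are absent. Prkcz-202 is the PKM-zeta type of transcript, and it holds 69.1% of the full-length codons. The RNA lengths run the other way, since Prkcz-202 has 4083 bases and Prkcz-201 has 2641. The stretch of full-length coding sequence from base 520 to base 609, counted from the A of its start codon, is shown because it holds the codon at which the short protein begins, in capitals.

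Prkcz-201: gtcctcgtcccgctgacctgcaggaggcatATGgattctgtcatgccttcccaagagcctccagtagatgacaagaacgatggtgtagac

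The capitals lie inside the frame of the full-length protein, where they encode an internal methionine. This start codon lies at chr4:155294267-155294269, in exon 6 of Prkcz-201 and exon 3 of Prkcz-202. The first bases of Prkcz-202 lie 15589 bases downstream of those of Prkcz-201, within the gene, and both starts have a RefSeq start window of 300 bases (250 before the RefSeq start and 50 after it; GRCm38.p6, the same assembly as mm10). RefSeq windows were found for 5 of the 7 genes. Prkcz has 3 windows, and those nearest to the starts of Prkcz-202 and Prkcz-201 are shown 5′ to 3′ on the minus strand, the first at the short start (chr4:155345740-155346039) and the second at the full-length start (chr4:155361379-155361678), with motif matches in capitals.

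Prkcz-202: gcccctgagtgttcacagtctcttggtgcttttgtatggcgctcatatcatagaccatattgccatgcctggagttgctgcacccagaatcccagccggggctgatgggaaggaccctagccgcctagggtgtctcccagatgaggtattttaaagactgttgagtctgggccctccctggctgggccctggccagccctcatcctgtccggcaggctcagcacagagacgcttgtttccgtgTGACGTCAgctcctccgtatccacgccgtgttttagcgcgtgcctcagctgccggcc

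Prkcz-201: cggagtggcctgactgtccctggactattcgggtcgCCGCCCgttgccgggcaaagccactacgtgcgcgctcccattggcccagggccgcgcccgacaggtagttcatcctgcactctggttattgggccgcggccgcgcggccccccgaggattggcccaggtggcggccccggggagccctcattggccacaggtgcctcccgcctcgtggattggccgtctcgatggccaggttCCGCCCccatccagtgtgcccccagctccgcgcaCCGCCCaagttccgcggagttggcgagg

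The motifs searched on both strands were the cyclic AMP response element TGACGTCA, its half-site TGACG, the TATA box TATAAA, the GC box GGGCGG and the E-box CACGTG. The short window held 1 full response element, beginning 7 bases upstream of the RefSeq start. Its half-site matches both lie inside that element, and no GC box, TATA box or E-box was found. The full-length window held 3 GC boxes, read as CCGCCC on the strand shown, and none of the other motifs. Of 32851 windows from 27025 genes, 1.79% held the full response element and 35.66% held a GC box. The short window had a GC content of 59.3% with 13 CpG dinucleotides and the full-length window 71.0% with 31, beside medians of 52.7% and 7 over all windows. A match describes the letters only.

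The tables give TPM, the abundance of transcripts corrected for effective length and scaled to the same total in each library, and an expected count, the estimated reads of a gene or transcript after reads that fit several are divided among them. Gene-assigned expected counts totalled 35358099 in replicate 1 and 36307276 in replicate 2. The 7 genes held 59897 counts in replicate 1 and 60183 in replicate 2, or 0.169% and 0.166% of those totals. All 7 were detected, meaning a level of 1 TPM or more in each library, as were 14369 of the 55536 genes. Summed over the 7, the gene TPM was 651 in replicate 1 and 608 in replicate 2.

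In the order of gene TPM, the conventional beta and calcium-independent epsilon forms led and the calcium-independent eta form came last. Prkcb, the calcium-dependent beta form abundant in forebrain neurons (ENSMUSG00000052889.11, chromosome 7, 122288751 to 122634402, plus strand), had 299 TPM in replicate 1 and 287 in replicate 2. Prkce, the epsilon form (ENSMUSG00000045038.14, chromosome 17, 86167785 to 86657919, plus strand), had 157 and 151 TPM and ranked 478 by mean TPM among all genes. Prkca, the alpha form found in most tissues (ENSMUSG00000050965.14, chromosome 11, 107933387 to 108343928, minus strand), had 89.5 and 72.0 TPM. Of the 7 genes, Prkca had the widest spread between the libraries in TPM, 80.8 ± 12.4 (SD, n = 2). The other genes differed less: Prkcb averaged 293 ± 8.44 TPM and Prkce 154 ± 3.97 TPM (SD, n = 2 each).

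Prkcz came next with 68.0 TPM in replicate 1 and 61.5 in replicate 2, or 64.7 ± 4.56 (SD, n = 2). Prkci, the other atypical gene (ENSMUSG00000037643.14, chromosome 3, 30995747 to 31052959, plus strand), a kinase that acts with the Par polarity proteins, had 22.9 and 22.4 TPM. Prkcd, a calcium-independent form studied in stress and cell death signalling (ENSMUSG00000021948.17, chromosome 14, 30595354 to 30626210, minus strand), had 12.7 and 12.4 TPM. Both lay well under Prkcz and had narrow spreads, 22.6 ± 0.389 TPM for Prkci and 12.5 ± 0.233 TPM for Prkcd (SD, n = 2 each). Prkch, the eta form known chiefly from epithelia (ENSMUSG00000021108.18, chromosome 12, 73584796 to 73778185, plus strand), was at the low end with 1.34 and 1.36 TPM, from 115 and 126 expected counts. The ratio of Prkcb to Prkch in TPM was 223 in replicate 1 and 211 in replicate 2.

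Each pair of neighbours in this order was separated by more than the larger of its standard deviations, and no ranges overlapped. The closest pair was Prkca and Prkcz, whose means differed by 16.0 TPM beside a standard deviation of 12.4 for Prkca, with 4.05 TPM between the ranges. That pair was not separate in the second quantification of the same reads, made without a separate alignment and named the kallisto layout after its columns. There Prkca had 165 and 136 TPM and Prkcz had 140 and 144 TPM, so that their ranges overlapped. The other neighbours kept their order there, from 428 and 426 TPM for Prkcb, 265 and 267 for Prkce, 63.7 and 59.0 for Prkci and 22.2 in each library for Prkcd to 2.10 and 2.30 for Prkch. In bulk tissue, fewer cells of a type and less RNA per cell cannot be told apart, so these levels are averages over all cells of the sample.

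**Figure D1:**
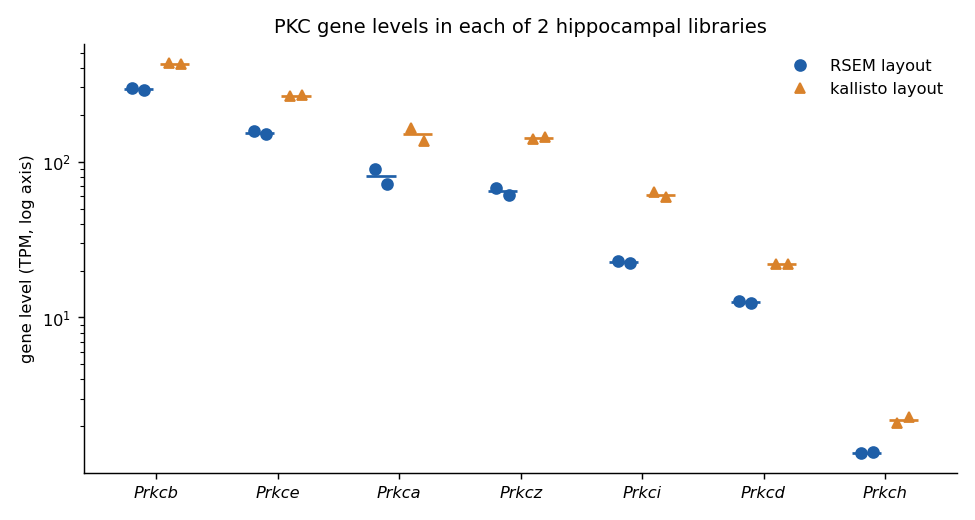
TPM of the 7 protein kinase C genes on a log axis in the RSEM-layout and kallisto-layout tables, with replicate 1 as the left and replicate 2 as the right point of each pair and a line at their mean. Prkcb is highest at 299 and 287 TPM and Prkch lowest at 1.34 and 1.36 TPM in the RSEM layout, and the points of Prkca and Prkcz overlap in level in the kallisto layout alone.

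The conventional pair held 59.4% ± 0.481 of the summed gene TPM of the 7 genes, the 3 calcium-independent genes 26.7% ± 0.606 and the atypical pair 13.9% ± 0.126 (SD, n = 2 each). These shares depended on the transcripts counted. Restricted to complete coding transcripts that end at the full-length stop codon, the conventional pair held 45.9%, the calcium-independent genes 37.8% and the atypical pair 16.3% of TPM. On that scale Prkce had 154 TPM in replicate 1 and 147 in replicate 2, and Prkcb had 148 and 141, so that their ranges overlapped. In the kallisto layout the ranges of that pair were apart, with coding TPM of 261.5 and 264 for Prkce and 192 and 195 for Prkcb, the reverse of their order by gene TPM. In the RSEM layout Prkcz had 56.7 and 54.3 coding TPM and Prkca had 52.4 and 47.6, the reverse of their order by gene TPM. In the kallisto layout the same coding measure gave Prkca 88.8 and 82.3 TPM and Prkcz 81.6 and 80.0 TPM. The order within each of these pairs therefore depended on the table and on the transcripts counted.

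Among Prkcz transcripts, the PKM-zeta type took most of the RSEM-layout abundance in both libraries. Prkcz-202 had 56.1 TPM in replicate 1 and 54.0 in replicate 2, or 82.6% and 87.8% of the gene, per the percent the authors deposited. Its mean share of the summed transcript TPM was 85.2% ± 3.65 (SD, n = 2). Full-length Prkcz-201 had 0.52 and 0.26 TPM, or 0.77% and 0.43% of the gene. The short transcript exceeded the full-length one 108-fold in replicate 1 and 207.7-fold in replicate 2. In expected counts Prkcz-202 had 5707 and 5866, against 34.0 and 18.2 for Prkcz-201.

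The full-length estimate rested on few reads and was itself uncertain. The deposited standard deviation of its count was 25.0 in replicate 1 and 18.9 in replicate 2, close to the counts themselves. The deposited credibility intervals of TPM ran from 52.8 to 56.1 in replicate 1 and from 51.0 to 53.9 in replicate 2 for Prkcz-202. For Prkcz-201 they ran from 0.0458 to 1.46 in replicate 1 and from 5.69e-05 to 0.918 in replicate 2. The listed TPM of Prkcz-202, 56.14 and 53.99, lay just above the upper bounds of its intervals, 56.06 and 53.90. The intervals of the short and the full-length transcript did not overlap in either library, while the full-length values of the 2 libraries overlapped widely.

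The kallisto layout kept the order and gave a smaller gap. There Prkcz-202 had 71.8 TPM in replicate 1 and 71.6 in replicate 2, and Prkcz-201 had 9.82 and 8.48 TPM. The short transcript was 7.31-fold and 8.44-fold above the full-length one. Of the counts the kallisto layout assigned to the gene, 86.3% in replicate 1 (exact 95% binomial interval 85.4% to 87.2%) and 86.9% in replicate 2 (86.0% to 87.7%) were on Prkcz-202. In the RSEM layout the same count shares were 96.7% (96.2% to 97.2%) and 97.8% (97.4% to 98.1%). These intervals cover counting error only and do not cover the step that divides reads between transcripts, and the layouts differed by more than their width. Of short plus full-length TPM alone, the short transcript held 99.3% ± 0.310 by RSEM-layout values and 88.7% ± 1.02 by kallisto-layout values (SD, n = 2 each).

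**Figure D2:**
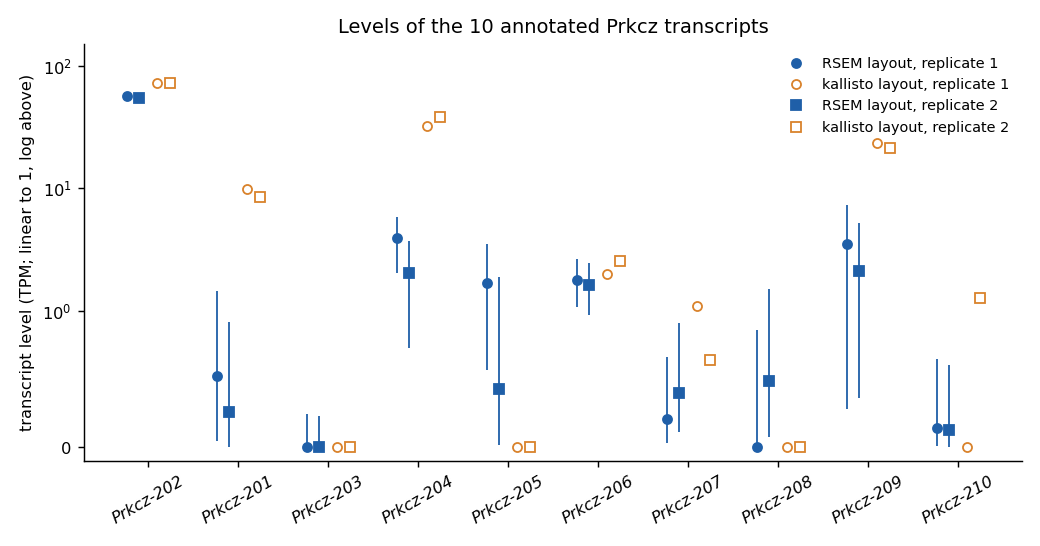
TPM of each annotated Prkcz transcript in each library and layout, on an axis that is linear up to 1 TPM and logarithmic above; vertical lines are the deposited credibility intervals of the RSEM layout. Prkcz-202 leads at 56.1 and 54.0 TPM in the RSEM layout and 71.8 and 71.6 TPM in the kallisto layout, while full-length Prkcz-201 is at 0.52 and 0.26 TPM in the first and 9.82 and 8.48 TPM in the second.

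The bases that tell the annotated pair apart are unequal in number. Prkcz-202 shares 2168 bases with Prkcz-201. That leaves 1915 bases found in the short transcript and not in the full-length one, and 473 found only in the latter. The annotated 3′ end of Prkcz-202 lies at 155260129 and that of Prkcz-201 at 155261721, on the minus strand. Part of the 1915 bases is therefore 3′ sequence beyond the end of Prkcz-201, which does not mark the internal start. Reads there fit Prkcz-202 and not Prkcz-201, whichever start their RNA had. How many of the Prkcz-202 counts came from that part was not tested. Prkcz2, annotated as a processed pseudogene (chromosome 7, 27882755 to 27884510, minus strand), shares sequence with both. Of the 1915 sequence words of 31 bases that occur in Prkcz-202 and not in Prkcz-201, 0 also occur in Prkcz2, against 227 (48.0%) of the 473 that occur in Prkcz-201 and not in Prkcz-202. Prkcz2 itself had 1.81 TPM in replicate 1 and 1.89 in replicate 2, from 76.5 and 85.4 expected counts, more counts than the RSEM layout assigned to Prkcz-201. In the kallisto layout Prkcz-201 had more counts, 431 and 381, against 65 and 87 for Prkcz2. Whether reads moved between Prkcz-201 and Prkcz2 was not tested.

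The other 8 Prkcz transcripts were each lower than Prkcz-202 in the RSEM layout. Prkcz-204, Prkcz-205, Prkcz-206 and Prkcz-209 were above full-length Prkcz-201 there in both libraries. Prkcz-204, an incomplete coding transcript of 586 bases that begins 390 bases downstream of the start of Prkcz-202, had 3.93 TPM in replicate 1 and 2.05 in replicate 2, but 32.2 and 38.0 TPM in the kallisto layout. Prkcz-209, a non-coding transcript of 790 bases that shares 90.9% of its bases with Prkcz-202, had 3.51 and 2.12 TPM, but 23.4 and 21.5 TPM in the kallisto layout. Prkcz-204 took 4.56% of the gene by RSEM-layout TPM and 24.7% by kallisto-layout TPM, and Prkcz-209 took 4.31% and 15.8%. The short share was 50.4% ± 1.04 by kallisto-layout TPM (SD, n = 2), beside 85.2% by RSEM-layout TPM. By library the kallisto-layout share was 51.2% in replicate 1 and 49.7% in replicate 2. Prkcz-206, which is also incomplete, had 1.80 and 1.63 TPM. Prkcz-205, a non-coding transcript of 363 bases, had 1.69 and 0.43 TPM. Prkcz-207, Prkcz-208 and Prkcz-210 were at or under 0.49 TPM in both libraries. Prkcz-203, which begins 21 bases from the full-length start and has its own stop codon, was listed at 0 in both libraries and both layouts.

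Grouped by where they start, the transcripts of the internal region dominated in both layouts. The starts of Prkcz-202, Prkcz-204, Prkcz-206, Prkcz-208 and Prkcz-210 lie within 1032 bases of one another, and those of Prkcz-201 and Prkcz-203 lie at the upstream end of the gene. The internal group held 93.0% ± 2.48 of Prkcz TPM by RSEM-layout values and 77.1% ± 2.25 by kallisto-layout values (SD, n = 2 each). The starts here are annotated ones, and total RNA reads do not mark where a molecule began.

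**Figure D3:**
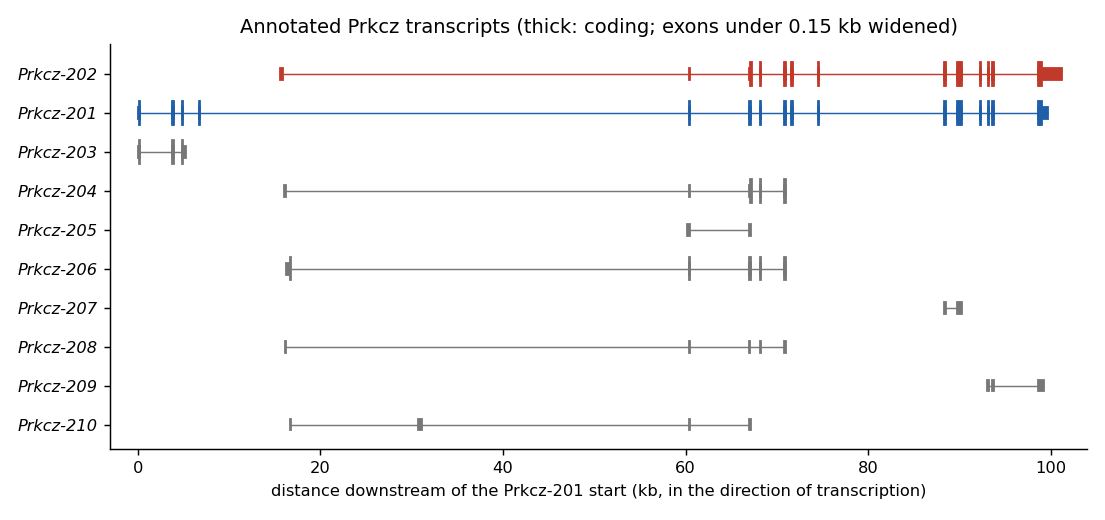
Map of the 10 annotated Prkcz transcripts in the direction of transcription, as distance from the full-length start in kilobases, with boxes for exons, thick where coding and widened when under 0.15 kb. Short Prkcz-202 (red) starts 15589 bases inside the gene, and full-length Prkcz-201 (blue) has exons upstream of that point that the short transcript lacks.

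Prkcb makes 2 kinases, beta I and beta II, that share their first 621 codons and differ in their carboxyl-terminal ends, which steer the kinases to different anchoring proteins. The coding sequences after the shared stretch are shown because they are what separates the forms, Prkcb-202 (beta II, 673 codons) and Prkcb-201 (beta I, 671 codons), each with its stop codon in capitals.

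Prkcb-202: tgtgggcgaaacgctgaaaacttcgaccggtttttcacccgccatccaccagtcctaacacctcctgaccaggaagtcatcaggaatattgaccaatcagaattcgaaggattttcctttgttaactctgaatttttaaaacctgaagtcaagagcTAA

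Prkcb-201: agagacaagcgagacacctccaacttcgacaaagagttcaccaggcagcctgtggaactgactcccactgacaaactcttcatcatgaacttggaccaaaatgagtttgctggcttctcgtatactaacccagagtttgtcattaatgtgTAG

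Of these 2 transcripts, that of beta II was the higher in both libraries. Prkcb-202 had 139 TPM in replicate 1 and 133 in replicate 2, and Prkcb-201 had 8.97 and 8.39 TPM. Beta II was 15.5-fold and 15.8-fold above beta I, and made up 94.0% ± 0.0799 of the TPM of both (SD, n = 2). In the kallisto layout that share was 94.0% ± 0.956, with ratios of 17.7 and 13.9. The share of beta II was thus the same in both tables to 3 digits, and the spread of its ratio to beta I was wider in the kallisto layout.

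Much of the Prkcb TPM lay outside these coding transcripts. Prkcb-208, an annotated retained intron of 955 bases in 1 exon, had 122 TPM in replicate 1 and 121 in replicate 2, or 40.8% and 42.2% of the gene, from 2670 and 2829 counts. By RSEM-layout counts Prkcb-208 held 17.6% ± 0.609 of the gene and the 2 coding transcripts 68.3% ± 0.473 (SD, n = 2 each). Prkcb-208 shares 658 bases with Prkcb-201. Prkcb-205, annotated as a target of nonsense-mediated decay, carries the beta II coding sequence and had 27.0 and 22.8 TPM, but 92.3 and 84.6 TPM in the kallisto layout. Prkcb-201 has 3 bases that are not in Prkcb-205. Set against all transcripts over the beta I end (Prkcb-201, Prkcb-205 and Prkcb-208), Prkcb-202 held 46.7% ± 0.165 of TPM in place of 94.0%. In the kallisto layout that share was 43.2% ± 0.00931 (SD, n = 2 each). Both are shares of Prkcb-202 alone and not of all beta II RNA. Prkcb-205, which also carries the beta II coding sequence, is counted on the other side. How much of the signal over the beta I end came from each of those 3 transcripts was not tested.

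**Figure D4:**
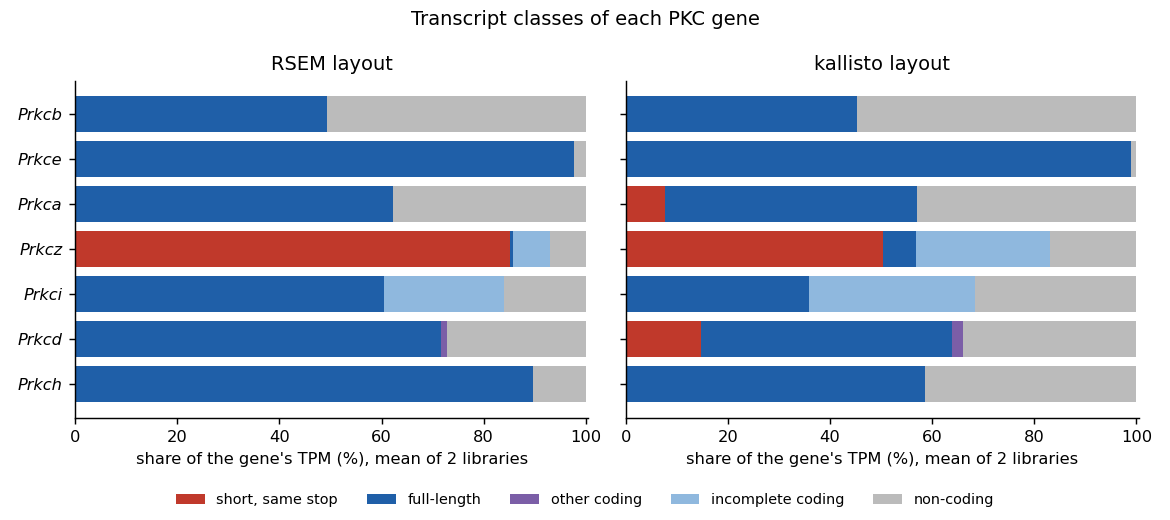
Mean share over the 2 libraries of each gene's TPM taken by short coding transcripts with the full-length stop codon, full-length coding, other coding, incomplete coding and non-coding transcripts, in the RSEM-layout (left) and kallisto-layout (right) tables. The short class holds 85.2% of Prkcz in the first and 50.4% in the second, and in the kallisto layout it also holds 14.8% of Prkcd and 7.68% of Prkca.

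A short coding transcript with the full-length stop codon led the gene only in Prkcz, among the 7. Prkca has such a transcript, Prkca-202, of 248 codons beside 672 for full-length Prkca-201. It had 0 TPM in replicate 1 and 0.11 in replicate 2, but 12.8 and 10.4 TPM in the kallisto layout, or 7.68% ± 0.113 of the gene there (SD, n = 2). Prkcd has Prkcd-204 and Prkcd-205, both listed at 0 in the RSEM layout. In the kallisto layout they summed to 3.84 and 2.72 TPM, or 14.8% ± 3.58 of the gene. Prkcb, Prkce, Prkch and Prkci have no annotated transcript of the class.

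Full-length Prkca-201 had 52.4 TPM in replicate 1 and 47.5 in replicate 2, or 58.6% and 66.0% of the gene. Prkca-204, a non-coding transcript of 678 bases, 87.9% of them shared with Prkca-201, had 34.3 and 22.0 TPM. It held 34.4% ± 5.55 of the gene's TPM but 3.73% ± 0.878 of its counts (SD, n = 2 each), 507 and 347 counts. The difference of 17.5 TPM between the libraries for Prkca as a gene lay beside one of 12.4 TPM for Prkca-204.

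Prkcd has 13 annotated transcripts and a splice form with 26 extra codons in its hinge region after codon 326. The insertion is shown in capitals with its flanks, from coding base 971 to base 1066 of Prkcd-208, because it is the coding difference between the 2 full-length forms.

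Prkcd-208: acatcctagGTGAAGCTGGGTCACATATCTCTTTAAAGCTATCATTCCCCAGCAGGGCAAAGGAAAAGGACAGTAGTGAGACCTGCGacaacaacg

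The form without the insertion was the main one in both libraries. Prkcd-207, of 674 codons, had 8.24 TPM in replicate 1 and 8.29 in replicate 2, and the transcripts with the insertion, of 700 codons, had 0.73 and 0.72 TPM in sum. The form without the insertion thus held 91.9% ± 0.104 of both (SD, n = 2), and 99.1% and 92.3% in the kallisto layout. The estimate for the insertion rested on few reads. Prkcd-208 had 15.2 and 53.8 RSEM-layout counts in replicates 1 and 2, with deposited standard deviations of 32.4 and 29.7. Prkcd-201, also of 700 codons, had 32.5 and 0 counts, with 23.7 and 18.2. The spread of 0.104 between libraries does not include that uncertainty. The retained introns Prkcd-206, Prkcd-209 and Prkcd-212 had shares of 7.75% ± 4.76, 3.12% ± 1.41 and 5.92% ± 1.42 (SD, n = 2 each). Their counts were low, at most 40.2 in a library of the RSEM layout and 62.2 in one of the kallisto layout.

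Prkce was nearly all 1 transcript in the RSEM layout. Prkce-202, with 6254 bases and 737 codons, had 154 TPM in replicate 1 and 146 in replicate 2, or 98.0% and 96.4% of the gene. Prkce-201, which encodes the same 737 codons and lies wholly within the exons of Prkce-202, had 0 and 1.29 TPM, but 51.1 and 58.8 TPM in the kallisto layout. A gene of unknown status on the same strand, AC154542.1, overlaps Prkce exons by 472 bases and had 175 and 143 counts, beside 24190 and 24654 for Prkce.

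Prkci-201, the full-length iota transcript of 595 codons, had 14.1 TPM in replicate 1 and 13.3 in replicate 2, or 61.6% and 59.4% of the gene. Prkci-203, incomplete in its coding sequence, had 4.64 and 5.98 TPM, and the non-coding Prkci-202 had 3.36 and 2.48 TPM. By counts the full-length transcript held 92.8% ± 0.345 (SD, n = 2). In Prkch, full-length Prkch-201 had 1.15 and 1.26 TPM, or 86.0% and 93.2% of the gene. The non-coding Prkch-202 held 6.49% ± 4.84, and Prkch-203, an annotated retained intron, held 3.92% ± 0.226 (SD, n = 2 each). In the kallisto layout Prkch-203 held 5.96% ± 0.306. In replicate 1 of the kallisto layout Prkch-204, a target of nonsense-mediated decay, had 1.18 TPM and Prkch-201 had 0.555, while in replicate 2 Prkch-204 was listed at 0 and Prkch-201 had 2.09 TPM.

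The leading transcript by mean share was the same in both layouts for 7 of 7 genes, namely Prkca-201, Prkcb-202, Prkcd-207, Prkce-202, Prkch-201, Prkci-201 and Prkcz-202. In replicate 1 alone it was the same for 6, the exception being Prkch. Sequence shared with transcripts of genes outside the 7, read in the same direction, was low for most of them. Of the 31-base words of Prkcz 18.3% occur in such a gene, of those of Prkce 6.00%, and at most 1.67% in each of the other 5. Sharing among the 7 genes was not counted.

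Gene counts of the family agreed closely between the libraries. Scaled with TMM factors, the ratio of replicate 2 to replicate 1 was 0.985 for Prkcb (exact 95% binomial interval 0.964 to 1.007), from 15548 and 15688 expected counts in replicates 1 and 2. For Prkcz it was 0.993 (0.958 to 1.029), from 5900 and 5999 counts. Prkca stood lowest at 0.934 (0.910 to 0.959), from 11654 and 11148 counts, and was the only 1 of the 7 whose interval left out 1. By deposited TPM its ratio was 0.804. The highest ratio was 1.07 for Prkch, with an interval of 0.824 to 1.390 from few counts, followed by Prkcd at 1.06 (0.953 to 1.172). The intervals cover counting error only, and with 2 libraries of 1 group a ratio describes those libraries.

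None of the 7 genes differed over 2-fold, beside 0.384% of the 14307 genes whose mean count reached 50 (55 genes). At a limit of 1.2-fold, 0 of the 7 passed, beside 10.4% of all genes (1483 genes). The median absolute log2 ratio was 0.02 over the 7 and 0.07 over all genes. Genes of like count were not set apart, so the part of counting error in that difference was not tested. With shares this small over all genes, 0 of 7 is not a result about the kinases.

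**Figure D5:**
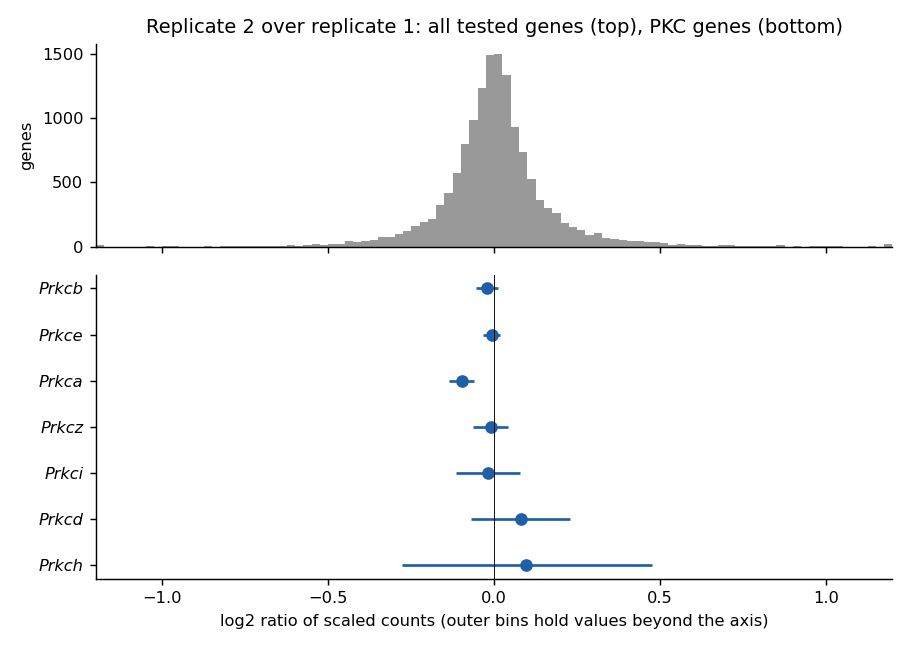
Log2 ratio of scaled counts, replicate 2 over replicate 1, as the distribution over all 14307 genes whose mean count reached 50 (top; outer bins hold values beyond the axis) and for the 7 genes with exact 95% binomial intervals (bottom). All 7 lie between -0.10 and 0.10, with the widest interval for Prkch.

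The wider diacylglycerol pathway was described by 8 lists of 87 genes. Of these, 81 reached 1 TPM in both libraries, as did 14369 of all 55536 genes. A mean count of 50 or more was reached by 83, and 0 differed over 2-fold, beside 0.384% of all genes with that count. With a share that small over all genes, 0 is not a result about the pathway. The median log2 ratio over the lists was -0.02, beside 0.0004 over all genes. Upstream of the kinases, 10 of 11 receptors and G proteins were detected. The highest were Grm5, a glutamate receptor coupled to phospholipase C, at 99.7 and 101.4 TPM in replicates 1 and 2, Gnaq, its G protein subunit, at 76.3 and 73.4 TPM, and Chrm1, a muscarinic receptor, at 71.9 and 65.0 TPM. Gna14 was lowest at 0.70 and 0.69 TPM. Of 12 phospholipases C, which make diacylglycerol, 11 were detected, led by Plcb1 at 53.2 and 53.5 TPM, Plcg1 at 36.6 and 32.9 TPM and Plch2 at 37.7 and 31.7 TPM, with Plcb2 lowest at 1.01 and 0.75 TPM.

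Diacylglycerol kinases and lipases, which remove it or make related lipids from it, were detected for 11 of 12. Dgkz led with 201.7 and 181 TPM, followed by Dgkg with 86.7 and 79.5 TPM and Dgkb with 66.9 and 62.9 TPM, and Dgkk was lowest at 0.23 and 0.35 TPM. Genes that fold, prime or remove phosphate from the kinases were all detected, 11 of 11. The chaperone genes Hsp90ab1, at 727 and 671 TPM, and Hsp90aa1, at 435 and 405 TPM, were above the kinase chaperone partner Cdc37, at 66.0 and 60.5 TPM. Phlpp2, a phosphatase of the kinase tail, was lowest at 11.3 and 10.6 TPM.

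Of 14 genes for anchors and atypical partners, 13 were detected. Sqstm1, a scaffold that binds the atypical kinases, had 201.1 and 188 TPM, Rack1, a receptor for activated kinase, had 99.5 and 96.8 TPM, and Wwc1, which encodes the KIBRA protein known to bind PKM-zeta, had 40.1 and 42.4 TPM. Llgl2 was lowest at 0.99 and 1.16 TPM. All 12 substrate genes were detected. Nrgn, encoding the postsynaptic calmodulin-binding substrate neurogranin, had 619 and 554 TPM, Nsf, a vesicle fusion factor, had 506 and 477 TPM, Pebp1 had 307 and 295 TPM and Marcksl1 was lowest at 30.95 and 29.5 TPM.

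Other diacylglycerol targets, which bind the lipid without being protein kinases C, were detected for 11 of 12. Chn1 led with 666 and 633 TPM, above Rasgrp1 with 149 and 142 TPM and Unc13a, a priming factor of synaptic vesicles, with 91.1 and 89.5 TPM. Rasgrp4 was lowest at 0.24 and 0.43 TPM.

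Markers of hippocampal cell types were present. All 7 excitatory neuron markers were detected, with Camk2a at 1333 TPM in replicate 1 and 1278 in replicate 2, and so were all 7 interneuron, 7 astrocyte, 8 oligodendrocyte, 7 microglial and 7 endothelial markers. Of lymphocyte markers 0 of 7 and of Purkinje cell markers 2 of 5 (Itpr1 and Calb1) reached 1 TPM in both. Among lists for tissue bordering the hippocampus, 6 of 8 meningeal fibroblast markers were over 2-fold higher in replicate 2, with Igf2 at 18.8 TPM in replicate 1 and 38.8 in replicate 2, beside 0.384% of all genes in either direction. All 7 choroid plexus markers were lower in replicate 2. Of the 3 with a mean count of 50 or more, Ttr, at 150 and 49.1 TPM, and Clic6 were over 2-fold lower and Kl was not. None of the 8 thalamus or 7 striatum markers was over 2-fold apart, with median log2 ratios of 0.11 and -0.01. The 8 oligodendrocyte markers were all lower in replicate 2, by a median of -0.35 in log2, with Mbp at 621 and 443 TPM. By scaled counts the 7 endothelial markers were all higher in replicate 2, by a median of 0.26 in log2. By TPM, Ly6c1 (25.5 in replicate 1 and 24.2 in replicate 2) and Cldn5 (17.95 and 17.2) were lower in replicate 2 and the others higher. Prkca, the gene with the lowest ratio of the 7, had a log2 ratio of -0.10, and the part of these marker shifts in it was not tested.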

How the data were processed

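The 2 libraries were analysed from deposited tables. Per the file headers, the RSEM-layout gene and transcript tables give the authors' expected counts, TPM and FPKM. The transcript tables add the authors' percent of the gene's abundance. They also give a deposited standard deviation of the count, used as a score, and the bounds of a credibility interval of TPM, used as a signal. The kallisto-layout tables give the authors' estimated counts and TPM. Deposited notes name mm10 as the build and GENCODE M21 as the annotation. For program versions and strand handling, the sources used here give nothing. Overlapping genes may therefore share reads.

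Expected counts were rounded to whole numbers and scaled with TMM factors in edgeR 4.0.16 (R 4.3.3). ERCC rows (0.493% and 0.4894% beside gene counts) and 26248 numbered rows without a gene name, holding 2.78 and 6.00 counts, were left out of library sizes. Genes whose mean count reached 50 were compared over 2-fold and 1.2-fold. Intervals are exact binomial, at 95%, and cover counting error only. A transcript was short when it shared the stop codon of the longest coding sequence and encoded less than 90% of it. Transcripts named are all those of Prkcz and, elsewhere, those holding at least 5% of a gene in either layout, with the partners of the pairs compared. Alternatives were DESeq2 1.42.0 size factors, other scalings, units, minimums and definitions. Python 3.11.15 with pandas 2.3.3, numpy 2.4.6, scipy 1.17.1 and matplotlib 3.10.9 was used.

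The 7 genes and the pathway and marker lists were chosen with earlier results of these data known. Of each pathway list the 3 highest genes and the lowest are named, and of the marker lists some of the 2 highest genes and of those over 2-fold apart. The single results of 1 pathway list are not reported here.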

Additional observations from a re-analysis of the deposited data

How the results depend on the processing

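The Prkcz short share, 85.2% of TPM in the RSEM layout, moved beyond the replicate spread under several choices. It was 50.4% in kallisto-layout TPM, 97.2% in RSEM-layout counts, 99.3% of short plus full-length alone and 7.21% when short meant fewer bases of RNA, a rule that leaves out Prkcz-202 by its length. Among alternatives chosen after seeing the data, transcripts starting near Prkcz-202 held 93.0% by RSEM-layout TPM and 77.1% by kallisto-layout TPM. Leaving out each replicate gave 82.6% to 87.8%. Genes over 2-fold apart numbered 437 at a count minimum of 10 and 15 at 200, against 55 at 50. Genes over 1.2-fold apart numbered 3903, 513 and 1483 at the same minimums, and 2261 by TPM. None of the 7 genes was over 2-fold apart under any alternative run. At a TPM minimum of 5, or by FPKM, 6 of the 7 were detected, without Prkch. Levels of the 7 genes moved beyond the replicate spread in 20 of 35 alternatives, and log2 ratios moved outside their counting intervals in 4 of 35. Leaving out 1 of 2 replicates shifts a mean by less than their SD, so those alternatives could not count as moved. Of the remaining level alternatives, only that of Prkce by coding transcripts stayed within the spread. All 4 moved log2 ratios came from TPM as deposited, for Prkca, Prkcb, Prkce and Prkcz. FPKM is another unit, and coding transcripts alone are a part of a gene, so levels by those choices differ by definition. Apart from these and the Prkcz length rule, the cause of the shifts was not tested. No paired analysis was possible because both libraries belong to 1 group.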
